A study of Homo sapiens with 6 samples.

Results

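Most of the transcripts described here encode subunits of RNA polymerase II, of the Mediator complex or of the Integrator complex. They were taken by symbol alone, as every row whose name starts with POLR2 and a letter from A to M, or with MED or INTS and a digit. The rule found 57 of the 11679 genes per the authors' deposited tables: 14 of RNA polymerase II, 29 of Mediator and 14 of Integrator. The polymerase genes include POLR2J4, a non-coding copy, and POLR2M, placed here as polymerase-associated and not as a bona fide subunit. RNA came from 786-O, a human clear cell renal carcinoma line, in 6 libraries of polyadenylated RNA with 2 per group. One group received a non-targeting siRNA (NTC), and the others received ALYREF siRNA5 or ALYREF siRNA8, each a separate siRNA against the mRNA export adaptor ALYREF. All cells were transfected, split into fresh medium at 24 h and harvested at 48 h, with 10% fetal bovine serum recorded for every library.

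RNA polymerase II is the enzyme that makes messenger RNA and many small nuclear RNAs, and some of its smaller subunits also sit in RNA polymerases I and III. Mediator passes signals from transcription factors to the polymerase at promoters; its head and middle touch the enzyme, its tail touches activators, and a detachable kinase module regulates that contact. Integrator binds paused polymerase, cuts the nascent RNA with an endonuclease and carries a protein phosphatase, and it is best known for ending the transcripts of small nuclear RNA genes. ALYREF joins messenger RNA while it is being transcribed and processed, and hands it to the export receptor.

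The authors' deposited tables give 1 mean normalized count per gene over all libraries of the fit and, for each siRNA, a log2 fold change against NTC with its standard error (SE). Calls rest on an adjusted p below 0.05. Values and depth per library were not analysed here, so the spread between duplicates enters only through the SE. Nothing in the labels says that duplicates were separate cultures, so that the p-values may measure technical spread alone. ALYREF itself was left at 5.67% of the control level with siRNA5 and 7.83% with siRNA8 per the authors' deposited tables. Of the 10 marker genes listed for a renal carcinoma line 8 were measured, PAX8 with a mean of 2354 and VIM with 53094, while CA9 and NDUFA4L2 were not among the genes tested. Of 14 immune, endothelial and fibroblast markers, 3 were measured per the authors' deposited tables, the highest being CD68 with a mean of 202.

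The polymerase transcripts were the most abundant of the 3 families. Divided by the length of a reference transcript, the mean over the libraries had a median of 559 normalized counts per kb for RNA polymerase II, 151 for Mediator and 203 for Integrator, beside 135 for all 11430 genes with a reference length. POLR2L, a small zinc-binding subunit common to the 3 nuclear polymerases, was highest at 1445 per kb. POLR2B, the second largest subunit, followed at 1105 per kb and POLR2E, another common subunit, at 1043 per kb. POLR2A, the catalytic subunit whose repeated tail recruits processing factors, stood at 574 per kb. The stalk subunit POLR2D was at 159 per kb, while its partner POLR2G was at 774 per kb. Their mean counts had the other order, 803 for POLR2D and 640 for POLR2G. The contrast per kb thus rests on the reference lengths, 5042 and 827 bases. MED10, a small middle subunit, reached 1277 per kb, far above the next Mediator transcript, MED8, at 466 per kb. The lowest Mediator levels were 42.0 per kb for MED12, the activator of the Mediator kinase, and 38.3 per kb for MED26, which brings elongation factors to the polymerase. INTS11, the Integrator endonuclease, led its complex at 488 per kb, against 66.8 per kb for INTS9, its catalytically inactive partner. These levels pool all groups and carry no error, so the order of close neighbours is not a tested result, and it depends on the reference transcript used.

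**Figure D1:**
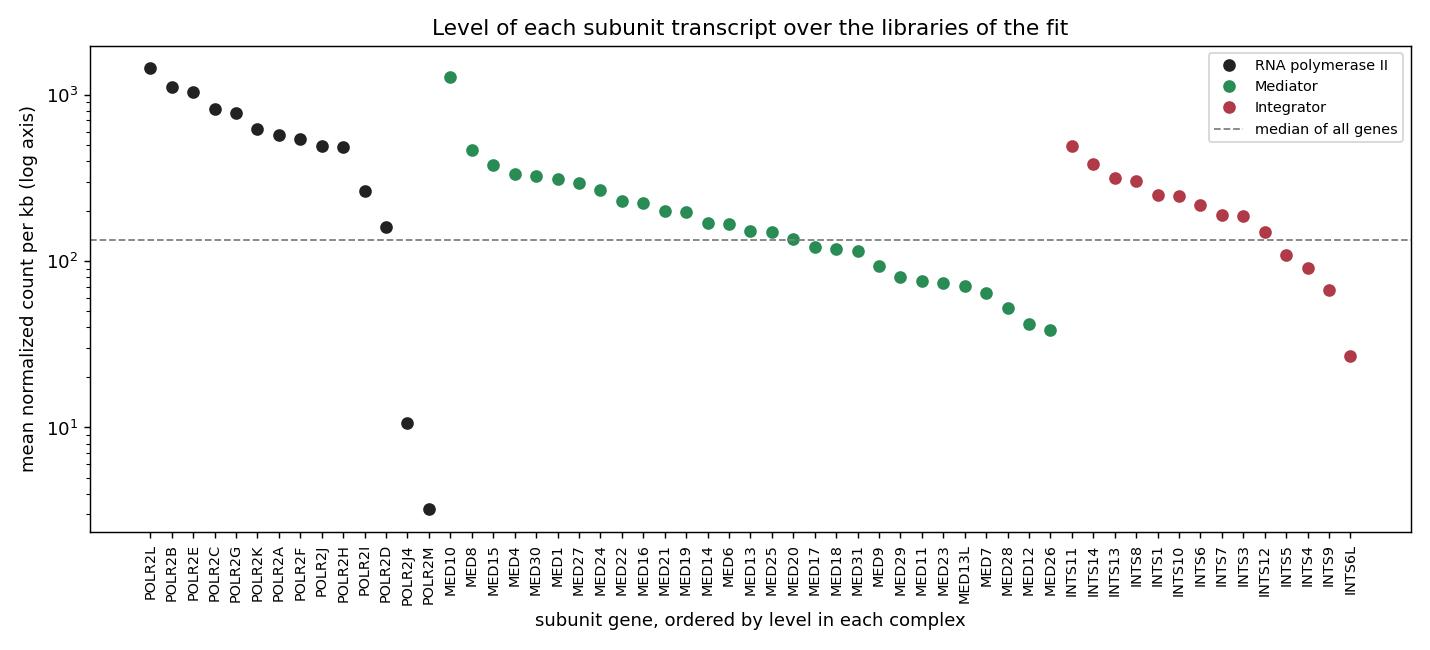
Mean normalized count per kb of reference transcript (y axis, log scale) for each subunit gene (x axis), ordered within its complex; each point is 1 gene's mean over all libraries of the authors' fit, and the dashed line is the median of all genes. Most polymerase points lie above the line of 135, and POLR2J4 and POLR2M lie far below it.

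Across the 57 subunit genes, calls were about as frequent as among all genes. With siRNA5, 8 rose, 15 fell and 34 were not called per the authors' deposited table. Among all genes there, 46.4% were called, 24.4% as higher and 22% as lower, so the total of 23 subunit genes, or 40.4%, is near the background. Their split between rises and falls was not tested. With siRNA8, 12 rose, 10 fell and 35 were not called, beside 41.5% of all genes called, 21% as higher and 20.5% as lower per the authors' deposited table. The median log2 change of the subunit genes was 0.02 with siRNA5 and 0.04 with siRNA8, against 0.01 for all genes with each siRNA. The size of change, as the median absolute log2 value, was 0.19 for siRNA5 and 0.16 for siRNA8, against 0.25 and 0.23 over all genes. The subunit genes had a median mean count of 640, against 459 over all genes, and the part of this level in the smaller sizes was not tested. In all, 3 values passed a 2-fold change, those of INTS5 and MED22 with siRNA5 and of MED21 with siRNA8. The same size of change was passed by 620 of all 11679 genes with siRNA5 and by 561 with siRNA8. The 24 genes called with neither siRNA, beside 4268 of all 11679 genes, include 7 of the polymerase, 13 of Mediator and 4 of Integrator.

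**Figure D2:**
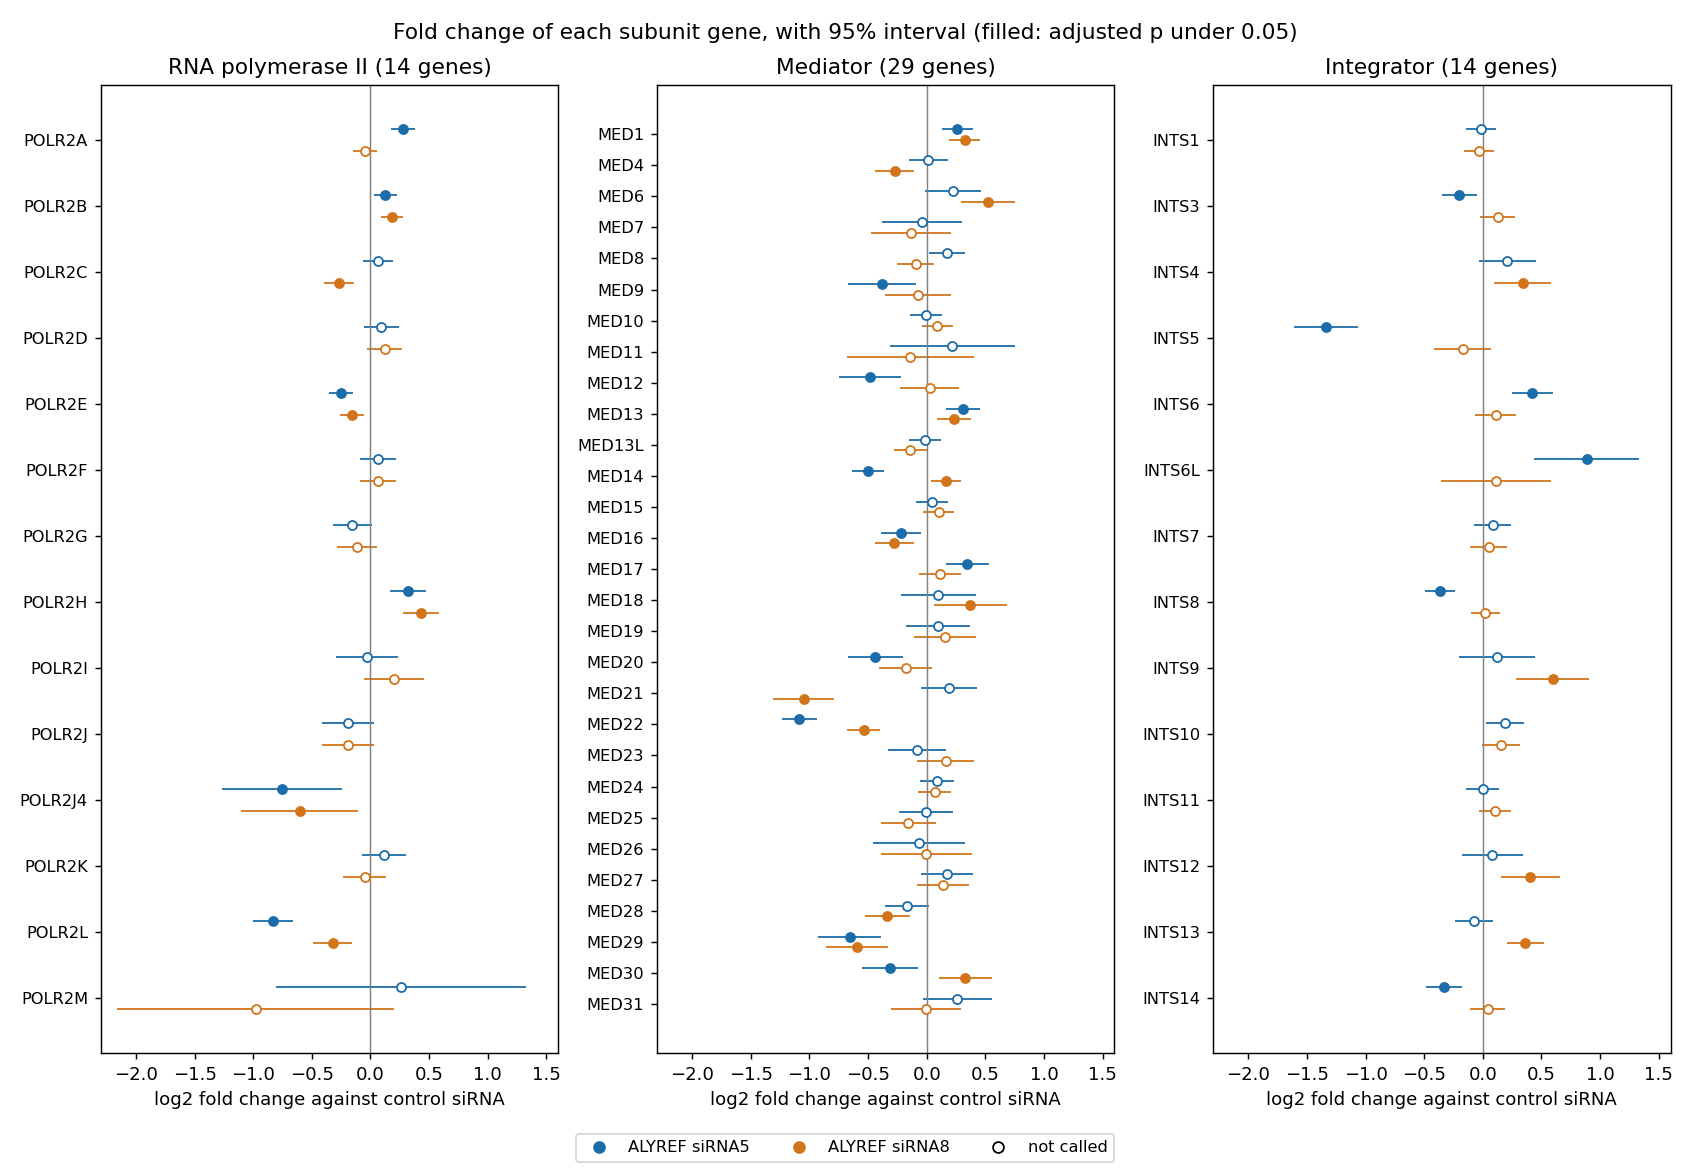
Log2 fold change against NTC (x axis) of every subunit gene (y axis) with siRNA5 (blue) and siRNA8 (orange), from the authors' deposited tables; bars are 95% intervals from the standard errors, and filled points passed an adjusted p of 0.05. The largest falls are INTS5 and MED22 with siRNA5 and MED21 with siRNA8, while most points lie within 0.5 of 0.

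Within RNA polymerase II, the 2 large subunits were higher with siRNA5, and the common subunits moved apart from each other. Of its 14 genes, 42.9% were called with each siRNA, beside 46.4% and 41.5% of all genes, which is near the background. POLR2A, at a mean of 3872, was at 121% of control with siRNA5 (95% interval 113 to 130; log2 0.28, SE 0.052, adjusted p = 8.73e-07) per the authors' deposited table. With siRNA8 it was at 96.8% (95% interval 90.1 to 104; adjusted p = 0.51) per the authors' deposited table. POLR2B rose with both, to 109% of control with siRNA5 (log2 0.13, SE 0.048, adjusted p = 0.0206) and 113% with siRNA8 (log2 0.18, SE 0.048, adjusted p = 0.000808) per the authors' deposited tables. These were the smallest rises called in this complex.

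Of the 5 subunits that the polymerases share, 1 rose and 2 fell with each siRNA, and these were the same genes. That is 60% called, beside 46.4% and 41.5% of all genes, and counts this small in 5 genes set nothing apart. Both comparisons use the same NTC libraries, so the repeat is not independent evidence. POLR2H was at 125% of control with siRNA5 (95% interval 112 to 139; log2 0.32, SE 0.079, adjusted p = 0.000232) and at 135% with the other siRNA (95% interval 121 to 150; log2 0.43, SE 0.078, adjusted p = 2.46e-07), the largest called rises of the polymerase per the authors' deposited tables. POLR2L was at 56.2% with siRNA5 (95% interval 50.0 to 63.3; log2 -0.83, SE 0.087, adjusted p = 4.89e-20) and 80.0% with siRNA8 (95% interval 71.4 to 89.7; log2 -0.32, SE 0.084, adjusted p = 0.000579) per the authors' deposited tables. POLR2E was at 84.0% and 89.6% of control in the same order, both called. POLR2F and POLR2K, the other common subunits, had log2 changes between -0.05 and 0.12 per the authors' deposited tables, and none was called. Neither stalk subunit was called: POLR2D had log2 changes of 0.09 and 0.12, and POLR2G of -0.15 and -0.12 per the authors' deposited tables.

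POLR2C, which starts assembly of the enzyme together with POLR2J, was at 83.1% of control with siRNA8 (95% interval 75.9 to 90.9; adjusted p = 0.000276) and at 105% with siRNA5 (adjusted p = 0.431) per the authors' deposited tables. POLR2J had log2 changes of -0.19 with both siRNAs and was called with neither (adjusted p = 0.166 and 0.167 per the authors' deposited tables). POLR2I, a subunit near the incoming DNA, was not called, and 72.0% of its exon bases are also exons of genes on the other strand in GENCODE 29. POLR2J4, a non-coding copy of POLR2J with a mean of 68.6, was at 59.3% of control with siRNA5 (95% interval 41.5 to 84.7; log2 -0.75, SE 0.26, adjusted p = 0.0111) and 65.8% with siRNA8 (95% interval 46.6 to 93.0; log2 -0.60, SE 0.25, adjusted p = 0.044 per the authors' deposited tables). Reads of POLR2J and its copies may be split by the authors' counting, and 27.9% of the exon bases of POLR2J4 overlap other genes on its strand, so its values are uncertain. POLR2M, the lowest of the 57 genes with a mean of 13.5, had SEs of 0.55 and 0.60 per the authors' deposited tables and 95% intervals of 57.1 to 251% and 22.3 to 115% of control. At an adjusted p of 0.01, POLR2B was lost with siRNA5 and POLR2J4 with both siRNAs.

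Mediator genes were called in both directions, within the head and middle modules with each siRNA. With siRNA5, 3 of its 29 genes rose and 8 fell, and with siRNA8, 6 rose and 6 fell per the authors' deposited tables. That is 37.9% and 41.4% of its genes called, beside 46.4% and 41.5% of all genes, below or near the background. Among the 7 head subunits, which meet the polymerase, MED22 fell most. MED22, at a mean of 1002, was at 47.0% of control with siRNA5 (95% interval 42.4 to 52.2; log2 -1.09, SE 0.076, adjusted p = 1.8e-44) and at 69.0% with siRNA8 (95% interval 62.6 to 76.0; log2 -0.54, SE 0.071, adjusted p = 1.04e-12) per the authors' deposited tables. Its binding partner MED11 had a mean of only 63.5 and was called with neither siRNA (log2 0.22, SE 0.27, and log2 -0.14, SE 0.28, per the authors' deposited tables). MED17, the central head subunit, rose to 127% with siRNA5 (95% interval 112 to 144; log2 0.35, SE 0.092, adjusted p = 0.000633), with a log2 change of 0.11 (SE 0.093) with siRNA8 per the authors' deposited tables. For MED17, 41.9% of exon bases also belong to another gene on its strand in GENCODE 29, and the sources used here do not say how the authors' counting divided such reads. MED6 rose to 143% of control with siRNA8 (95% interval 122 to 168; log2 0.52, SE 0.12, adjusted p = 5.79e-05) and was at 117% with siRNA5 (adjusted p = 0.114) per the authors' deposited tables. MED18 and MED20 form a pair in the head. MED18 was at 130% with siRNA8 (95% interval 104 to 161; log2 0.37, SE 0.16, adjusted p = 0.048), a call that was lost when fold changes were centred on the median gene, and MED20 was at 73.7% with siRNA5 (adjusted p = 0.00091) per the authors' deposited tables. MED8 was called with neither siRNA.

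The middle module held the deepest fall with siRNA8. MED21, which pairs with MED7 at the hinge of the middle, was at 48.3% of control with siRNA8 (95% interval 40.3 to 57.9; log2 -1.05, SE 0.13, adjusted p = 7.48e-14) and at 114% with siRNA5 (95% interval 96.9 to 134; adjusted p = 0.191) per the authors' deposited tables. MED7 itself had log2 changes of -0.04 (SE 0.17) and -0.13 (SE 0.17) per the authors' deposited tables. MED1, the contact of nuclear receptors, rose to 120% with siRNA5 (95% interval 109 to 131; log2 0.26, SE 0.067, adjusted p = 0.000388) and 125% with siRNA8 (95% interval 114 to 137; log2 0.32, SE 0.066, adjusted p = 8.13e-06) per the authors' deposited tables. MED4 fell to 82.7% with siRNA8 and its partner MED9 to 76.8% with siRNA5, and neither passed the threshold with the other siRNA per the authors' deposited tables. The remaining middle subunits, MED10, MED19, MED26 and MED31, were called with neither. Of the exon bases of MED31, 70.8% overlap an exon of TXNDC17 on the other strand, and 45.6% of those of MED26 overlap other genes on its own strand.

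MED14, the backbone that joins head, middle and tail, went opposite ways. It was at 70.8% of control with siRNA5 (95% interval 64.5 to 77.7; log2 -0.50, SE 0.069, adjusted p = 6.28e-12) and at 112% with siRNA8 (95% interval 102 to 122; log2 0.16, SE 0.065, adjusted p = 0.0349) per the authors' deposited tables. MED30, one of the 4 subunits placed here between head and tail, showed the same pattern at 80.6% (95% interval 68.2 to 95.1; log2 -0.31, SE 0.12, adjusted p = 0.0259) and 126% (95% interval 107 to 147; log2 0.33, SE 0.11, adjusted p = 0.0125) per the authors' deposited tables. At an adjusted p of 0.01, MED30 was lost with both siRNAs, MED14 and MED18 with siRNA8, and MED9 and MED16 with siRNA5. MED29 of the same set fell with both, to 63.4% (95% interval 52.7 to 76.4; log2 -0.66, SE 0.14, adjusted p = 9.16e-06) and 66.1% (95% interval 55.1 to 79.4; log2 -0.60, SE 0.13, adjusted p = 5.29e-05) per the authors' deposited tables. MED28 fell to 79.3% with siRNA8 (95% interval 69.6 to 90.4; log2 -0.33, SE 0.096, adjusted p = 0.00204) per the authors' deposited table, and 32.4% of its exon bases overlap FAM184B on the other strand. MED27 was called with neither.

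In the tail, which binds activators, 1 of 5 genes was called with each siRNA. That is 20%, beside 46.4% of all genes with siRNA5 and 41.5% with siRNA8, and counts this small in 5 genes set nothing apart. The gene called was MED16, at 86.0% of control with siRNA5 (adjusted p = 0.0264) and 82.6% with siRNA8 (adjusted p = 0.00429) per the authors' deposited tables. MED23, a contact of growth-factor-responsive activators, had log2 changes of -0.08 (SE 0.13, adjusted p = 0.628) and 0.16 (SE 0.12, adjusted p = 0.304) per the authors' deposited tables. MED15, MED24 and MED25 had log2 changes between -0.16 and 0.10 per the authors' deposited tables.

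In the kinase module, paralogues were not called alike. MED13, which docks the module on the rest of Mediator, rose to 124% with siRNA5 (95% interval 112 to 137; log2 0.31, SE 0.074, adjusted p = 0.000123) and 118% with siRNA8 (95% interval 106 to 130; log2 0.23, SE 0.073, adjusted p = 0.00522) per the authors' deposited tables, while MED13L was called with neither (log2 -0.01, SE 0.072, and -0.14, SE 0.072). MED12 fell to 71.6% with siRNA5 (95% interval 59.4 to 86.1; log2 -0.48, SE 0.14, adjusted p = 0.0014) and was at 102% with siRNA8 (95% interval 85.6 to 121; adjusted p = 0.888) per the authors' deposited tables. The kinases themselves carry other names and lie outside the symbol rule. CDK8 rose by 0.54 (SE 0.093) with siRNA5 and its paralogue CDK19 fell by 0.48 (SE 0.13) per the authors' deposited table, and neither was called with siRNA8 (adjusted p = 0.0895 and 0.059). Their cyclin, CCNC, rose by 0.52 (SE 0.072, adjusted p = 6.6e-12) with siRNA8 and had a log2 change of 0.04 (SE 0.074) with siRNA5 per the authors' deposited tables.

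Integrator genes called with one siRNA were not called with the other. With siRNA5, 2 of its 14 genes rose and 4 fell, with siRNA8, 4 rose and 0 fell, and no gene was called with both per the authors' deposited tables. At an unadjusted p under 0.05 by the authors' deposited Wald test there were likewise 0 falls with siRNA8 and 0 genes past it with both siRNAs. Among all genes, 24.4% were called higher and 22% lower with siRNA5, 21% and 20.5% with siRNA8, and 9.85% higher and 8.76% lower with both, so counts this small in 14 genes set nothing apart. With siRNA5, 4 of the 6 called genes lay in the phosphatase module as grouped here, 2 higher and 2 lower. INTS6L is among these 4 only because it was added after the symbols were seen. All 4 genes of the group were called, beside 46.4% of all genes, and so few genes set nothing apart. In this module INTS5, INTS6 and INTS8 hold protein phosphatase 2A against the polymerase. INTS5 was at 39.7% of control with siRNA5 (95% interval 32.8 to 48.0; log2 -1.33, SE 0.14, adjusted p = 3.68e-20), the deepest fall of all 57 genes, and at 88.7% with siRNA8 (95% interval 75.1 to 105; adjusted p = 0.261) per the authors' deposited tables. INTS8 fell to 77.7% with siRNA5 (95% interval 71.1 to 85.0) and was at 102% with siRNA8 per the authors' deposited tables, though 35.2% of its exon bases overlap CCNE2 on the other strand. INTS6 rose to 134% with siRNA5 (95% interval 119 to 151; log2 0.42, SE 0.089, adjusted p = 1.1e-05) per the authors' deposited table. INTS6L, a paralogue of INTS6 placed beside it after the symbols were seen, rose to 185% from a low mean of 102 (95% interval 135 to 251; log2 0.88, SE 0.23, adjusted p = 0.000405) per the authors' deposited table. PPP2CA, the catalytic subunit of the phosphatase and no member by symbol, rose by 0.22 (SE 0.042) with siRNA5 per the authors' deposited table. Its scaffold PPP2R1A was not called, with a log2 change of 0.04 (SE 0.053, adjusted p = 0.546) per the same siRNA5 table the authors deposited.

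The calls with siRNA8 were of other genes of the complex. Of these genes, only INTS13 also differed between the siRNAs by the test of the difference given below. With siRNA8, INTS9 rose to 151% of control (95% interval 122 to 187; log2 0.59, SE 0.16, adjusted p = 0.000769) and INTS4, the scaffold of the endonuclease module, to 127% (95% interval 107 to 149; log2 0.34, SE 0.12, adjusted p = 0.0164) per the authors' deposited table. The endonuclease INTS11 had log2 changes of 0.00 (SE 0.072, adjusted p = 0.998) with siRNA5 and 0.10 (SE 0.070, adjusted p = 0.249) with siRNA8 per the authors' deposited tables. INTS12, which anchors to INTS1, rose to 133% (95% interval 111 to 158; log2 0.41, SE 0.13, adjusted p = 0.00586) with siRNA8, and INTS13 of the arm with INTS10 and INTS14 rose to 129% (log2 0.36, SE 0.080) per the authors' deposited table. INTS14 fell to 79.6% (log2 -0.33, SE 0.079) and INTS3, the partner of single-strand DNA binding proteins, to 87.1% (log2 -0.20, SE 0.077) with siRNA5 per the authors' deposited table. NABP2, such a binding protein, fell by 0.48 (SE 0.091) with siRNA5, while its paralogue NABP1 was not called (log2 0.08, SE 0.10, adjusted p = 0.543) per the authors' deposited table. INTS1, the largest backbone subunit, had log2 changes of -0.01 (SE 0.066, adjusted p = 0.879) and -0.03 (SE 0.066, adjusted p = 0.734), and INTS7 and INTS10 were also called with neither siRNA per the authors' deposited tables. At an adjusted p of 0.01, INTS3 was lost with siRNA5 and INTS4 with siRNA8.

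Calls in 1 direction with both siRNAs were few. POLR2B, POLR2H, MED1 and MED13 rose with both, and POLR2E, POLR2J4, POLR2L, MED16, MED22 and MED29 fell with both per the authors' deposited tables. These are 4 and 6 of 57 genes, beside 9.85% of all genes higher and 8.76% lower with both. MED14 and MED30 were called in opposite directions, as were 5.87% of all genes. Both comparisons use the same NTC libraries, so a shared direction is not independent evidence from the second siRNA. With a minimum absolute log2 change of 0.25 in both, 2 of the rises and 4 of the falls were left. That minimum ended the calls of POLR2B with both siRNAs, of MED16 and INTS3 with siRNA5, and of POLR2E, MED13 and MED14 with siRNA8.

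Promoter sequence was at hand for 40 of the 57 genes and for 7 of the 10 that moved in 1 direction with both siRNAs, and it is shown for those 7 because they are the members that changed together. Each run is the 100 bases before the transcription start, 5′ to 3′ on the gene's strand, from RefSeq on GRCh38.p14, while the counts were made on hg19. Capitals mark a GC box (GGGCGG) or a CCAAT box (CCAAT) on either strand; an ETS site (CCGGAAG) and a TATA box (TATAAA) were searched too. POLR2H has 2 annotated starts and therefore 2 runs. The genes higher with both siRNAs come first, then the lower ones.
POLR2B, chr4:56978796-56978895, plus strand: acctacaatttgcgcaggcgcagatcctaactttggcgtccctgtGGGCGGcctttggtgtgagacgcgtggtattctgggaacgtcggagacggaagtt
POLR2H, chr3:184361610-184361709, plus strand: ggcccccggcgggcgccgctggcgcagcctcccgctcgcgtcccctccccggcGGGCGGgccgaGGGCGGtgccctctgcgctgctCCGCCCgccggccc
POLR2H, chr3:184363261-184363360, plus strand: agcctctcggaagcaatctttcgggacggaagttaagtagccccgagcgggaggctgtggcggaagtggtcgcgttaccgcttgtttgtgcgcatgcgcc
MED1, chr17:39451264-39451363, minus strand: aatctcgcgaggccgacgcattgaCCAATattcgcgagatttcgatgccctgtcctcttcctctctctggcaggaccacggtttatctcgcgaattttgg
POLR2E, chr19:1095376-1095475, minus strand: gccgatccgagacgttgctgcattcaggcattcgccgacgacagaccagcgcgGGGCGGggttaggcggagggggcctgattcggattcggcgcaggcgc
POLR2L, chr11:842530-842629, minus strand: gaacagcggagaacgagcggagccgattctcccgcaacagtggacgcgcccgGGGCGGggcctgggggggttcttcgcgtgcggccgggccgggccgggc
MED16, chr19:893188-893287, minus strand: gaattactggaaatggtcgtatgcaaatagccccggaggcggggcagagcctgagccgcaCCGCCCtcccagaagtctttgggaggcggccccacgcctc
MED29, chr19:39391278-39391377, plus strand: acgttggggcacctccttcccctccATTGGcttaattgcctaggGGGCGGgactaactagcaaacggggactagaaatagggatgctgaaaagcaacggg

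A GC box was found in the runs of POLR2B, POLR2H (at 1 of its starts), POLR2E, POLR2L, MED16 and MED29, and a CCAAT box in those of MED1 and MED29, so that both motifs occurred among the rising and the falling genes. Taking the first listed start of each gene, 23 of the 40 subunit genes held a GC box (57.5%), 10 an ETS site (25.0%), 9 a CCAAT box (22.5%) and 0 a TATA box. Counted the same way over the 9087 genes of the tables with a RefSeq promoter, the shares were 53.5%, 11.95%, 22.2% and 2.13%. Over all 27305 genes with one they were 31.3%, 5.95%, 18.7% and 5.34%. The GC box and CCAAT box shares of the subunit genes were thus close to those of the genes tested here. A match of letters is a description of the window and not a bound site.

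The siRNAs were then set against each other by the difference of their log2 changes, with an SE that ignores the shared control and is therefore an upper bound. Of the 57 genes, 14 differed at an adjusted p under 0.05, or 24.6%, beside 32% of all genes. Against siRNA8, siRNA5 gave higher levels of 4 (POLR2A, POLR2C, MED21 and INTS6) and lower levels of 10 (POLR2L, MED12, MED14, MED22, MED30, INTS3, INTS5, INTS8, INTS13 and INTS14). MED21 differed by 1.24 (SE 0.18, adjusted p = 1.07e-10) and INTS5 by -1.16 (SE 0.19, adjusted p = 7.15e-09) on the log2 scale. MED14 differed by -0.66 (SE 0.095, adjusted p = 8.32e-11), MED30 by -0.64 (SE 0.17, adjusted p = 0.000798) and MED22 by -0.55 (SE 0.10, adjusted p = 1.3e-06). MED22 thus fell with both siRNAs but further with siRNA5. Of the 4 phosphatase module genes, 3 differed, while INTS6L did not pass (0.77, SE 0.33, adjusted p = 0.0592). INTS9 and INTS12, called with siRNA8 alone, did not pass the test of the difference either (-0.48, 95% interval -0.92 to -0.03, adjusted p = 0.101, and -0.32, 95% interval -0.69 to 0.04, adjusted p = 0.183). Nor did INTS4, also called with siRNA8 alone (-0.13, 95% interval -0.47 to 0.21, adjusted p = 0.629). Of the 10 genes called in one direction with both siRNAs, POLR2L (95% interval of the difference -0.75 to -0.27) and MED22 (-0.76 to -0.35) differed in size between them. For the other 8, which did not pass, the intervals were -0.25 to 0.12 for MED1, -0.13 to 0.28 for MED13, -0.33 to 0.10 for POLR2H, -0.44 to 0.32 for MED29, -0.19 to 0.08 for POLR2B, -0.24 to 0.05 for POLR2E, -0.87 to 0.57 for POLR2J4 and -0.18 to 0.30 for MED16. With the covariance from the shared controls removed by assuming equal variances in all groups, 8 genes were higher with siRNA5 and 13 lower, and INTS6L, INTS9 and INTS12 then passed, as did MED4, MED6, MED8 and MED17. At an adjusted p of 0.01, the differences of INTS3, INTS6 and MED12 were lost.

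**Figure D3:**
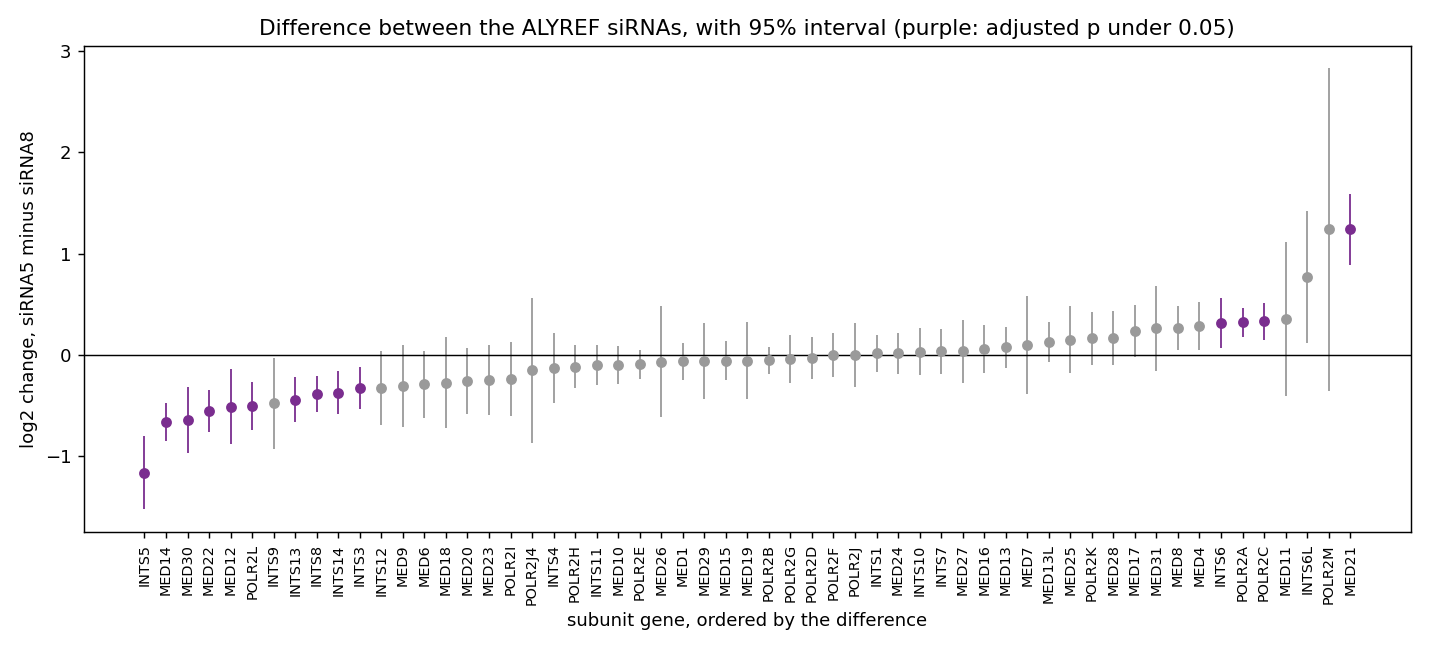
Difference of log2 changes, siRNA5 minus siRNA8 (y axis), for each subunit gene in order (x axis); bars are 95% intervals that ignore the shared control and so are too wide, and purple points passed an adjusted p of 0.05. INTS5 lies lowest at -1.16 and MED21 highest at 1.24, next to POLR2M, whose wide interval crosses 0.

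Transcript structure was compared as a description over genes, which share libraries and are not replicates. Over the 57 subunit genes, Pearson's r between GC content of the reference transcript and the log2 change was -0.31 with siRNA5 (Spearman's rho -0.30) and 0.00 with siRNA8 (rho -0.13). Over all 11430 genes with a reference it was -0.25 (rho -0.27) and -0.17 (rho -0.18). Between exon number and the log2 change it was 0.10 (rho 0.14) with siRNA5 and 0.24 (rho 0.33) with siRNA8, beside 0.03 (rho 0.08) and 0.05 (rho 0.08) over all genes. INTS5, with 2 exons and 59.8% GC, POLR2L, with 2 exons and 60.1% GC, and MED22, with 5 exons and 54.7% GC, fell with siRNA5, where the median subunit gene has 8 exons and 49.2% GC. MED21, which fell with siRNA8, has 4 exons and 36.8% GC. These 4 genes were named for their falls, and other genes of high GC content did not all fall. POLR2H, with 60.1% GC, rose with both siRNAs, and INTS1, with 65.2%, and MED25, with 65.4%, were called with neither. MED16, with 65.1%, fell with both. MED7 and MED9 also have 2 exons; MED9 fell with siRNA5 and MED7 was not called. The part of GC content or exon number in these changes was not tested.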

How the data were processed

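The data were 2 tables of the authors' results, 1 per ALYREF siRNA, with 11681 rows each, 2 of which are counters of reads without a gene (no feature, 6.23% of the sum of means, and ambiguous, 1.62%) and were left out. The number in a table's name, which the library titles share, tied it to siRNA5 or siRNA8, and fold changes were read as siRNA over NTC. Per the submitters' processing notes, STAR, Picard, HTSeq, DESeq2 and the build hg19 were used, without versions or settings. The deposited signal is a gene's mean normalized count across libraries, as the authors' fit gave it. Fold changes and their SE are log2 values per the file headers, and the sources do not state any shrinkage. The deposited Wald score equals the fold change over its SE, and the deposited p-values and adjusted p-values (Benjamini-Hochberg over all rows) were recomputed and matched. The authors' adjusted p-values give the calls.

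From these values, percent of control with 95% intervals (normal), the difference between the siRNAs (normal two-sided p, adjusted over all genes, tested on simulated data) and counts per group were computed in Python 3.11.15 with SciPy 1.17.1. Lengths, exons and GC content came from GENCODE 29 (GRCh38), from a basic-set transcript, the APPRIS principal one first, or, for POLR2A, which that assembly misspells, its full-length transcript. All 57 members and 11430 of 11679 genes matched by symbol. Statistics are given in most detail for the 5 largest called rises and falls per siRNA, the 5 largest differences and 11 preset subunits. The remaining members are named because the symbol rule takes them. The members and lists were chosen with earlier results of these data known. INTS2 and MED12L were not analysed here.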

Additional observations from a re-analysis of the deposited data

Results flagged for a closer look

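These subunit genes responded differently to the 2 siRNAs by the test of the difference itself, siRNA5 minus siRNA8 on the log2 scale, which used the authors' deposited fold changes. They are 14 of 57 genes, or 24.6%, beside 32% of all genes, so such differences were no more frequent here than among all genes. Among RNA polymerase II genes the difference was 0.32 for POLR2A (adjusted p = 0.000107), 0.33 for POLR2C (adjusted p = 0.00188) and -0.51 for POLR2L (adjusted p = 0.000193). Among Mediator genes it was 1.24 for MED21, -0.66 for MED14, -0.64 for MED30, -0.55 for MED22 and -0.51 for MED12 (adjusted p = 0.0236). Among Integrator genes it was -1.16 for INTS5, -0.44 for INTS13 (adjusted p = 0.000764), -0.39 for INTS8 (adjusted p = 0.000181), -0.37 for INTS14 (adjusted p = 0.00335), -0.33 for INTS3 (adjusted p = 0.0103) and 0.31 for INTS6 (adjusted p = 0.042). ALYREF itself differed by -0.47 (SE 0.13) between the siRNAs, and the part of knockdown depth or of effects of either siRNA on other transcripts in these differences was not tested.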

How the results depend on the processing

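Counts of members higher and lower with each siRNA stayed within 1.5 times, that limit included, under each of these settings. They were an adjusted p of 0.01, an adjustment limited to means of 50 or more, a minimum absolute log2 change of 0.25, centring on the median gene and bona fide subunits only (without POLR2J4 and POLR2M). At an adjusted p of 0.01, falls with siRNA5 went from 15 to 10 and rises with siRNA8 from 12 to 8, both at the limit. Past the limit were 2 other counts: 8 members, not 4, were higher with siRNA5 than siRNA8 once the shared-control covariance was removed, and 2, not 4, were higher with both siRNAs under the minimum change. Centring reversed the sign of 1 difference, that of POLR2J, from 0.00167 to -0.00176, neither called. INTS10 was called higher with siRNA5 only after that limited adjustment. No paired analysis was possible because the tables hold no values per library, and leaving out each replicate was not run for the same reason. Low means limit POLR2M, MED11 and POLR2J4.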

Other observations

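Lists of other transcription and RNA 3′ end genes, chosen beside the members, were counted by call from the authors' deposited tables. Over all genes, 46.4% were called with siRNA5 (24.4% higher, 22% lower) and 41.5% with siRNA8 (21% higher, 20.5% lower), and no list was tested against them. Of 30 initiation factors, 8 rose and 8 fell with siRNA5, and 5 rose and 3 fell with siRNA8. GTF2A1, a subunit of TFIIA, rose by 0.87 (SE 0.099) and ERCC2, a helicase of TFIIH, fell by 0.94 (SE 0.13) with siRNA5 per the authors' deposited table. Of 31 pausing and elongation factors, 13 rose and 6 fell with siRNA5, and 9 rose and 5 fell with siRNA8. AFF4, the scaffold of the super elongation complex, rose by 0.84 (SE 0.060) and 0.36 (SE 0.061), ELL2 of the same complex fell by 0.77 (SE 0.090) with siRNA5, and HEXIM1, an inhibitor of the elongation kinase, fell by 0.81 (SE 0.10) with siRNA8 per the authors' deposited tables. Of 14 phosphatases and assembly factors of the polymerase, 1 rose and 5 fell with siRNA5, and 2 rose and 1 fell with siRNA8.

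Of 21 cleavage and polyadenylation genes, 9 rose and 3 fell with siRNA5 and 13 rose and 1 fell with siRNA8. PCF11, a termination factor, rose by 0.70 (SE 0.084) with siRNA8, and CPSF7 fell by 0.62 (SE 0.072) and 0.22 (SE 0.069) per the authors' deposited tables. Of 18 genes of RNA polymerases I and III, 3 rose and 5 fell with siRNA5, and 7 rose and 2 fell with siRNA8 per the authors' deposited tables. POLR1C, a subunit of both enzymes, rose by 0.51 (SE 0.090) and POLR3C fell by 0.57 (SE 0.088) with siRNA8 per the authors' deposited table.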
